A study of Mus musculus with 12 samples.

Results

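Brefeldin A given under hypoxia was compared with DMSO given under normoxia in S100β-v-erbB/p53-/- TSC1 cells, a mouse cell culture of strain FVB-NJ. The arrays were Clarion S mouse arrays, which read whole transcripts at the level of genes. All 3 arrays titled Hypoxia+ BFA were set against all 3 titled Normoxia+ DMSO, so 6 of the 12 arrays of the study were compared. This was done for each of the 22206 transcript clusters that are not controls. The normoxia group received the solvent DMSO, and the hypoxia BFA group received brefeldin A at 1 µM per the treatment protocol and the design text, or 0.1 µM per the series title. Exposure lasted 16 h in DMEM F-12 medium with B27. Both groups carry the p53 deletion and a v-erbB transgene named for the S100β promoter, and neither v-erbB nor Trp53 was analysed here. Oxygen and compound both differ between the groups, so every value below belongs to the combined state. The other 6 arrays were hypoxia with DMSO and hypoxia with the Rac inhibitor EHT-1864 at 1 µM. They enter the pooled estimate of spread behind each standard error and adjusted p-value. Their levels are set beside the combined state only where they place a value.

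The design text speaks of 3 independent cultures without saying which arrays share one. The p-values measure only the spread between the arrays, which may be technical. In bulk RNA, fewer cells of a type and less RNA per cell cannot be told apart. Hypoxia stabilises the alpha subunits of HIF by slowing their prolyl hydroxylation, and HIF then switches on genes for glycolysis, glucose uptake, angiogenesis and mitochondrial removal. Brefeldin A locks the exchange factors of ARF GTPases, so that COPI coats leave the Golgi and secretory proteins back up in the endoplasmic reticulum (ER). Such a block is a classical trigger of the unfolded protein response, whose sensors PERK, IRE1 and ATF6 lead to translation control through eIF2α and ATF4, to spliced XBP1 and to the making of chaperones.

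Values are log2 levels as deposited, differences are hypoxia BFA minus normoxia in log2 units with the standard error (SE), and "rose" or "fell" marks a Benjamini-Hochberg adjusted p under 0.05 in limma. At that threshold 10432 transcript clusters differed, 47% of those tested, with 5108 higher (23%) and 5324 lower (24%). Of these, 966 (4.35%) were at least 2-fold higher and 2237 (10.1%) at least 2-fold lower. The arrays of the groups did not overlap for 11906 transcript clusters (53.6%), and the median difference over all was 0.10. In the same fit, hypoxia with DMSO was higher than normoxia at 2.11% of transcript clusters and lower at 0.563%. Hypoxia BFA was higher than hypoxia with DMSO at 26.1% and lower at 24.6%. It was higher than hypoxia with EHT-1864 at 16.9% and lower at 19.6%. Any count of members below is to be read against the shares of its own comparison. For hypoxia BFA against normoxia these shares also moved with level. In the brightest quartile of transcript clusters 1036 of 5552 were higher and 2642 lower, and in the next 1258 of 5551 and 2064. In the dimmest quartile 1233 of 5552 were higher and 70 lower. Counts for lists of bright genes are therefore to be set beside the brighter quartiles.

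The arrays themselves also differed between the groups. The detection floor, taken as the 95th percentile of the negative control probes on each array, was 6.49 ± 0.14 (SD, n = 3) on the hypoxia BFA arrays and 5.61 ± 0.02 (n = 3) on the normoxia arrays. The spread of log2 levels over all transcript clusters was narrower with BFA, with an SD of 2.28 ± 0.05 against 2.48 ± 0.02. Median differences were 0.25 and 0.26 in the dimmer level quartiles of transcript clusters, and -0.14 and -0.30 in the brighter ones. The exact two-sided permutation p was 0.1 for the floor and for the spread, the smallest that 3 against 3 arrays can give. Of the transcript clusters that differed, 3356 lay below the floor on all 6 arrays, and 4206 lay above it on all 6, of which 1665 were higher and 2541 lower. The part of the floor and spread in the results below was not tested. The number of arrays limits the precision of every value.

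**Figure D1:**
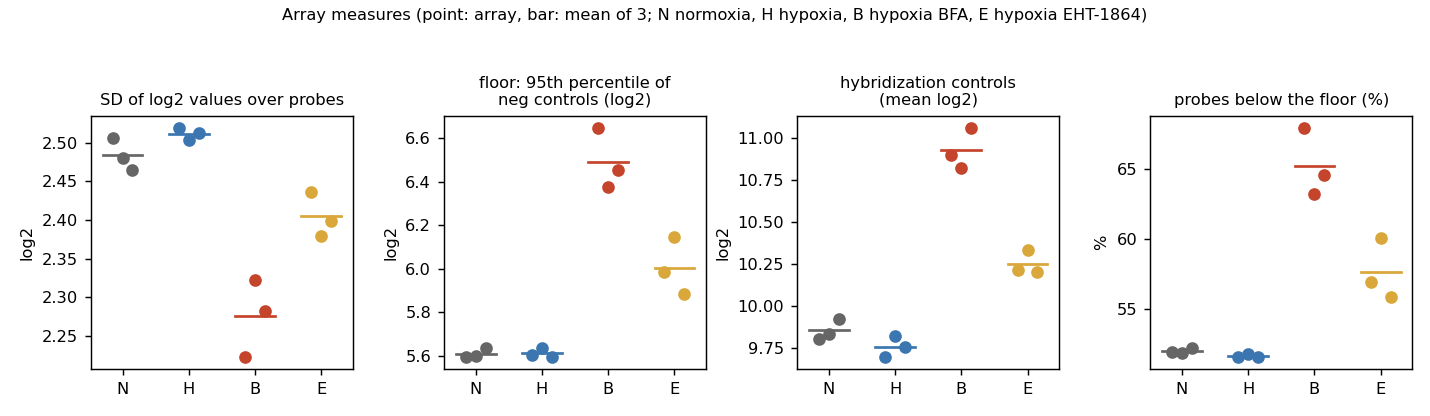
Spread of log2 levels, detection floor, mean of the hybridization control probes and percentage of transcript clusters below the floor, one point per array for the 4 groups of the study. The 3 hypoxia BFA arrays have the narrowest spread and the highest floor, with a mean floor of 6.49 against 5.61 on the normoxia arrays.

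Promoter stretches of 11 genes whose levels moved are shown first, grouped by a motif that they hold. They come from RefSeq annotation of GRCm38.p6, and windows of 300 bases, most of each upstream of the annotated start and the rest just after it, were matched for 15691 of the measured genes. Capitals mark a match on either strand, and a match is a description of letters, not evidence of a factor at the site. Overlapping matches run together in capitals, and the hypoxia core can overlap the end of an ER stress element. The first motif is the ER stress element, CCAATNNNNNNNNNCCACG, which ATF6 and the factor NF-Y are known to bind together. It was found in 28 of all 15691 promoters (0.178%), in 8 of 25 promoters of ER chaperone genes (32.0%) and in 2 of 15 promoters of ER-associated degradation genes (13.3%).
Hspa5 (chr2:34772010-34772058, + strand): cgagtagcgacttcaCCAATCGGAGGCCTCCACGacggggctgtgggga
Creld2 (chr15:88819505-88819553, + strand): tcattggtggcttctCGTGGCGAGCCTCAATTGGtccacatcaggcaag
Derl3 (chr10:75893227-75893275, + strand): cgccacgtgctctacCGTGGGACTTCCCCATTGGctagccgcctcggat
The second motif, TTGCATCA, is a composite CEBP-ATF site to which ATF4 and its partners are known to bind. It was found in 149 of all promoters (0.95%), in 8 of 35 promoters of the ATF4 list (22.9%) and in 32 of 575 promoters of genes at least 2-fold higher (5.57%), against 8 of 1685 of genes at least 2-fold lower (0.475%).
Fgf21 (chr7:45615607-45615644, - strand): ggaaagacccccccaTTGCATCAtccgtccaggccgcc
Atf3 (chr1:191183421-191183458, - strand): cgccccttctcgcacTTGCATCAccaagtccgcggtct
Slc7a11 (chr3:50443638-50443694, - strand): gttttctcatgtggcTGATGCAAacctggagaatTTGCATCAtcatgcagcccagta
Chac1 (chr2:119351034-119351071, + strand): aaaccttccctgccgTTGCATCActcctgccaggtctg
The third motif stands for E2F sites (TTTGGCGC, TTTCCCGC, TTTCGCGC and TTTGCCGC), through which E2F factors drive DNA replication genes. It was found in 531 of all promoters (3.38%) and in 17 of 33 promoters of the replication list (51.5%).
Mcm6 (chr1:128359730-128359830, - strand): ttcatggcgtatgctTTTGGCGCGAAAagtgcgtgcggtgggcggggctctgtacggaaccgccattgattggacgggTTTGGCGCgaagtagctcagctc
Cdc6 (chr11:98907998-98908035, + strand): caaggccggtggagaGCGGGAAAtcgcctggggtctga
The fourth motif, TTTGAA, is the core of the cell cycle homology region of mitotic genes, and was found in 2790 of all promoters (17.8%) and in 22 of 28 promoters of the mitosis list (78.6%).
Ccnb2 (chr9:70421701-70421736, - strand): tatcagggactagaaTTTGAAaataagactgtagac
The last motif, ACGTG, is the core of the hypoxia response element, and was found in 3763 of all promoters (24%), in 22 of 34 promoters of the HIF-1 target list (64.7%), and also in 75.0% of COPI promoters, so these letters do not single out the HIF-1 list.
P4ha2 (chr11:54100831-54100865, + strand): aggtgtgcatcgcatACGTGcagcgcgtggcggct
Of the 28 genes with the ER stress element, 13 rose and 1 fell, and of the 149 with the composite site 66 rose and 14 fell. Of the 531 genes with an E2F motif 68 rose and 251 fell. The 3763 genes with the hypoxia core had 889 rises and 1048 falls and a median difference of 0.03. The 2790 genes with TTTGAA had 594 rises, 622 falls and a median of 0.14.

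Most integrated stress response genes rose. Of 43 measured members of the ATF4 list, 35 rose and 3 fell, with a median difference of 1.20. Hypoxia with DMSO was already higher than normoxia in 24 of these 43 and lower in none, with a median of 0.69. Set directly against hypoxia with DMSO, 22 of the 43 were higher with BFA and 4 lower. All 8 transcription factors of the list rose. Ddit3, which encodes the pro-apoptotic factor CHOP, read 7.41, 6.98 and 7.08 on the normoxia arrays and 11.30, 11.46 and 11.39 with BFA, a difference of 4.22 ± 0.16 (SE), or 18.7-fold (limma adjusted p = 1.15e-09). This was the largest rise among genes above the floor on all 6 arrays, and the groups lay far apart. Atf3, a stress-induced repressor and activator of the same family, read 5.95, 6.41 and 6.33 in normoxia and 9.67, 9.88 and 9.65 with BFA, 11.3-fold higher (limma adjusted p = 1.43e-09). Atf4 itself, which is controlled mainly at translation but also at the level of its mRNA, read 10.12, 10.29 and 10.38 and 12.06, 12.15 and 12.03, a difference of 1.81 ± 0.12. No array of these genes overlapped between the groups. Nupr1, a small stress-induced nuclear protein, differed by 3.37, Atf5 by 1.64, Jdp2 by 1.58, Cebpb by 1.20 and Cebpg by 0.89.

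Secreted stress hormones stood out within the list. Fgf21, a metabolic hormone induced by ATF4, read 3.52, 4.31 and 3.63 in normoxia, below the floor on every array, and 11.18, 11.46 and 11.36 with BFA. It was at least 52.8-fold higher (limma adjusted p = 9.63e-10), the highest such bound in the comparison. These bounds set the group above the floor against the higher of the floor and the dim gene's own level. Adm2, a peptide of the calcitonin family, was at least 4.44-fold higher, and Stc2, a secreted glycoprotein induced by ER stress, differed by 0.92. Stc1 was below the floor on all 6 arrays.

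Negative feedback on the pathway rose as well, while its kinases divided. Ppp1r15a, the GADD34 subunit that directs dephosphorylation of eIF2α, was at least 5.23-fold higher. Trib3, a pseudokinase that restrains ATF4, differed by 2.69, the glutathione-degrading enzyme Chac1 by 2.74, and the mTORC1 inhibitors Sesn2 and Ddit4 by 1.38 and 1.53. Among the 4 eIF2α kinases, Eif2ak3, which encodes the ER sensor PERK, rose by 0.89 ± 0.13. Eif2ak4, the amino acid sensor GCN2, differed by -1.05, Eif2ak2, the RNA-activated PKR, by -0.74, and Eif2ak1, the haem-regulated HRI, by -0.56, and these 3 fell.

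Amino acid supply genes contributed 15 rises among 20. Slc7a11, the cystine importer that feeds glutathione synthesis, read 6.20, 5.86 and 6.30 in normoxia and 9.23, 9.63 and 9.42 with BFA, 9.88-fold higher (limma adjusted p = 2.39e-08). Aldh1l2, of mitochondrial folate metabolism, differed by 3.04 ± 0.14. The arginine importer Slc7a3 was at least 4.99-fold higher, and the cysteine-forming Cth at least 4.99-fold. Serine synthesis genes differed less, with 0.79 for Psph, which rose, 0.29 for Phgdh and -0.05 for Psat1, neither of which passed. The glutamine transporters Slc38a2 (-0.07) and Slc1a5 (0.22) did not pass either. Of 18 cytosolic aminoacyl-tRNA synthetases, which charge tRNAs with amino acids, 11 rose, led in size by Sars at 1.15 and Cars at 1.12. The 4 that fell were Farsa (-0.61), Hars (-0.51), Kars (-0.47) and Farsb (-0.40), and none of these falls remained after quantile normalization.

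**Figure D2:**
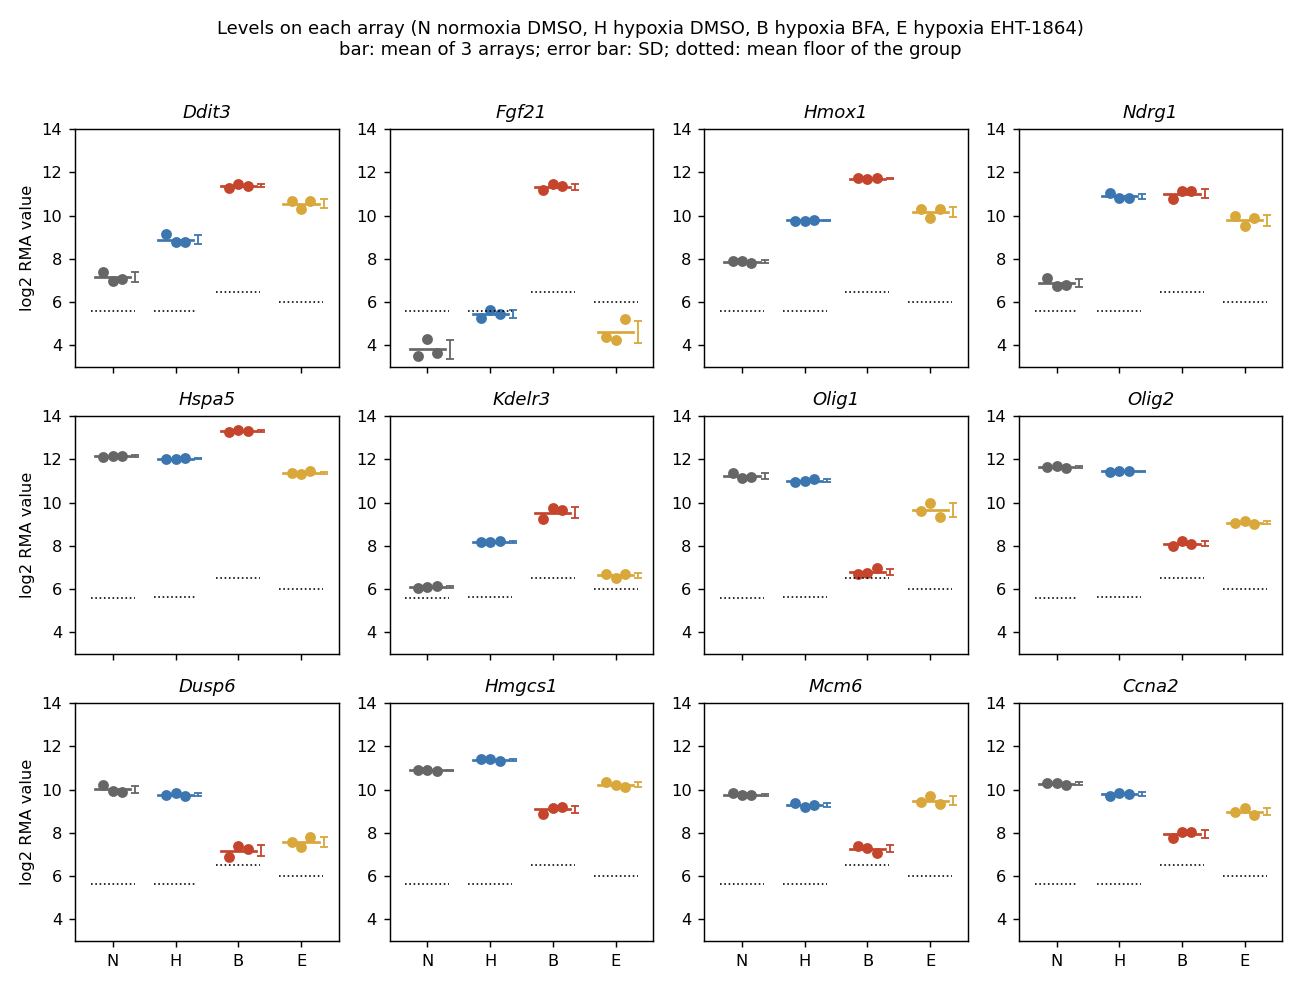
Log2 level of 12 genes on each array in the 4 groups, with the bar at the group mean, the error bar as the SD over 3 arrays and the dotted line at the mean detection floor. Ddit3, Fgf21, Hmox1, Ndrg1, Hspa5 and Kdelr3 are higher on all 3 hypoxia BFA arrays than on any normoxia array, and Olig1, Olig2, Dusp6, Hmgcs1, Mcm6 and Ccna2 are lower.

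Chaperones and folding enzymes of the ER rose in 20 of 29 members, with 1 fall and a median of 0.56. Hspa5, which encodes BiP, the main ER chaperone of the HSP70 family, read 12.11, 12.17 and 12.16 in normoxia and 13.24, 13.35 and 13.31 with BFA, a difference of 1.15 ± 0.10 (limma adjusted p = 1.1e-06). Every BFA array lay above every normoxia array although the gene was bright in both groups. Hypoxia with DMSO left Hspa5 at -0.12 relative to normoxia, which did not pass. Its partners moved with it, with 1.44 for the nucleotide exchange factor Hyou1, 2.60 for the J-domain protein Dnajb9, 0.85 for Dnajc3 and 1.16 for Hsp90b1, the ER paralogue of HSP90. Creld2, an ER stress-induced thiol protein, differed by 1.61. Calr, the calcium-binding lectin chaperone, rose by 0.53, while its membrane relative Canx stood at 0.06 and did not pass.

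Disulfide formation was led by Ero1a, the oxidase that recharges protein disulfide isomerase and that hypoxia also induces. It read 8.27, 8.31 and 8.40 in normoxia and 11.84, 11.86 and 11.89 with BFA, 11.6-fold higher (limma adjusted p = 1.68e-09). Hypoxia with DMSO differed from normoxia by 3.06 at this gene. Its paralogue Ero1b differed by 1.66, the isomerase P4hb by 1.5, Pdia6 by 0.65 and Pdia3 by 0.64. Tmx1, a membrane-bound thioredoxin, was the 1 member that fell (-0.49).

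The ER stress sensors rose in 4 of 6 members. Atf6 differed by 1.62, Xbp1 by 1.35 and Ern1, which encodes IRE1α, by 1.10, beside Eif2ak3 above. Atf6b fell by 0.41 on the log2 scale. The arrays measure total Xbp1 and not its splicing. Creb3, a membrane-bound factor of Golgi stress, differed by 1.75 and Creb3l2, of the same family, by -1.22, and both passed the test.

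ER-associated degradation, which returns misfolded proteins to the cytosol for destruction, had 10 rises and no fall among 17. Derl3, a channel component, read 5.81, 5.76 and 5.69 in normoxia and 8.17, 8.43 and 8.54 with BFA, a difference of 2.63 ± 0.13 (limma adjusted p = 8.38e-09). Herpud1, a scaffold of the ligase complex, differed by 2.05, Selenos by 1.71, Sel1l by 1.55, the ligase Syvn1 by 1.29 and Derl1 by 1.34. The extracting ATPase Vcp (-0.43) did not pass. Of 14 genes of the translocon and signal peptidase 7 rose and none fell, and quantile normalization gave 11. Of 24 N-glycosylation genes 10 rose and 3 fell, while 5 fell without hypoxia BFA replicate 2. The catalytic subunits of the oligosaccharyltransferase moved apart, Stt3a by 1.02 and Stt3b by -0.40.

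Genes of the coats and Golgi tethers between the ER and the Golgi, where brefeldin A acts, mostly rose. The ARF list stayed near the shares over all transcript clusters. COPII coats, which carry cargo out of the ER, and their tethers and SNAREs rose in 16 of 21 members and fell in 1, with a median of 0.82. Sec23a, of the inner coat, read 7.62, 7.47 and 7.64 in normoxia and 9.17, 9.45 and 9.24 with BFA, 3.27-fold higher (limma adjusted p = 1.16e-07). The groups did not overlap. Sec24d differed by 1.59, Sec24a by 1.17 and Sar1a, the GTPase that starts the coat, by 0.92, while Sec24b (-0.09) and Sec24c (-0.28) did not pass. Sec16a, which marks ER exit sites, was at least 2.44-fold higher. Trappc3, of the TRAPP tethering complex, was the member that fell (-0.58).

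Among 16 cargo receptors, 8 rose and 1 fell, and 1 gene exceeded the others in size. Kdelr3, a receptor that returns KDEL proteins such as BiP to the ER, read 6.07, 6.09 and 6.13 in normoxia and 9.24, 9.74 and 9.64 with BFA, 10.9-fold higher (limma adjusted p = 1.53e-09). Kdelr2 differed by 0.88 and Kdelr1 by 0.57. The lectin receptor Lman1 (0.20) did not pass, although its partner Mcfd2 rose by 0.80. Ergic1 fell by 0.36.

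COPI, the coat of retrograde transport that leaves the membrane under brefeldin A, had 7 rises and no fall among 9 subunits and a median of 0.88. Copz2 differed by 1.56 ± 0.11, or 2.96-fold, while the alternative subunit Copz1 stood at 0.00. Copg1 rose by 0.41 and Copg2 (-0.28) did not pass. The ARF list had 5 rises and 6 falls among 24, or 20.8% and 25%, near the 23% and 24% of all transcript clusters. Quantile normalization gave 10 and 5. Gbf1, the Golgi exchange factor that is a direct target of the drug, read 8.47, 8.40 and 8.11 in normoxia and 9.76, 9.96 and 9.94 with BFA, 2.95-fold higher (limma adjusted p = 8.11e-07). The other drug-sensitive exchange factors, Arfgef1 (0.08) and Arfgef2 (0.33), did not pass. Arf4 rose by 0.95 and Arf1 (0.22) did not pass. The 6 that fell included the exchange factor Cyth3 (-1.41), the GTPase-activating Git1 (-0.92) and the GTPase Arf6 (-0.53).

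Golgins, the coiled-coil tethers of Golgi membranes, and related structural genes rose in 10 of 14 members with no fall and a median of 1.20. Blzf1, which encodes golgin-45, read 8.82, 8.89 and 8.78 in normoxia and 10.76, 11.08 and 10.89 with BFA, 4.23-fold higher (limma adjusted p = 7.11e-08). Gcc1 differed by 1.71, Golgb1, the tether giantin, by 1.64, and Golga2, which encodes GM130, by 1.28. The stacking proteins Gorasp1 (0.08) and Gorasp2 (0.26) did not pass.

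HIF-1 target genes remained above normoxia in most cases. Of 45 measured targets 34 rose and 1 fell, with a median difference of 0.97, and 13 of the 45 were below the floor on all 6 arrays. Of the 34 rises, 10 were among those 13 dim targets. Ndrg1, a hypoxia-induced growth suppressor, read 7.11, 6.76 and 6.78 in normoxia and 10.78, 11.13 and 11.12 with BFA, 17.5-fold higher (limma adjusted p = 1.53e-09). Vegfa, the main angiogenic factor, differed by 2.74 ± 0.20. The groups did not overlap at either gene. Hypoxia with DMSO differed from the same normoxia arrays by 4.01 at Ndrg1 and 3.09 at Vegfa. Fundc1, a mitophagy receptor, was the 1 target that fell (-0.59).

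Set directly against hypoxia with DMSO, 7 of the 45 targets were higher with BFA and 27 lower, with a median of -0.64. These comparisons share arrays, so their values are not independent. P4ha2, a collagen prolyl hydroxylase, stood 2.79 above normoxia with BFA and 4.05 with DMSO. Pdk1, which diverts pyruvate from the mitochondria, stood 2.40 and 3.86 above it, and the mitophagy gene Bnip3 2.11 and 3.23. At other genes both levels were close, as at the glucose transporter Slc2a1 (2.00 with BFA and 2.34 with DMSO), P4ha1 (2.01 and 2.21), Vldlr (1.92 and 2.01) and Gys1 (1.62 and 1.63). The direct difference from hypoxia with DMSO passed at P4ha2, Pdk1 and Bnip3 and did not pass at these other 4 genes (limma adjusted p from 0.0555 at Slc2a1 to 0.957 at Gys1), which does not show that they are equal. At still other genes the level with BFA was near normoxia. The oxygen sensor Egln1 differed from normoxia by 0.14 with BFA, which did not pass, and by 1.27 with DMSO. Plod2, a lysyl hydroxylase of collagen, differed by 0.28, which did not pass, and 1.75. Egln3 still rose, by 1.07 with BFA beside 3.33 with DMSO.

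Hif1a mRNA read 9.19, 9.25 and 9.20 in normoxia and 8.0, 8.49 and 8.42 with BFA, a difference of -0.91 ± 0.13 (limma adjusted p = 0.000103). The oxygen-controlled step of this subunit is protein stability, which the arrays do not measure. Its partner Arnt (-0.13) and the ubiquitin ligase subunit Vhl (-0.29) did not pass. Of 14 glycolysis genes 7 rose and 2 fell. The brain enolase Eno2 was at least 4.7-fold higher, the hexokinase Hk2 rose by 1.41 and Aldoa by 1.27. Tpi1 rose by 0.60 with BFA beside 2.41 with DMSO, Pkm (-0.16) and Pgam1 (0.22) did not pass, and Pfkm fell by 0.90. Against hypoxia with DMSO, 1 glycolysis gene was higher and 12 lower.

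**Figure D3:**
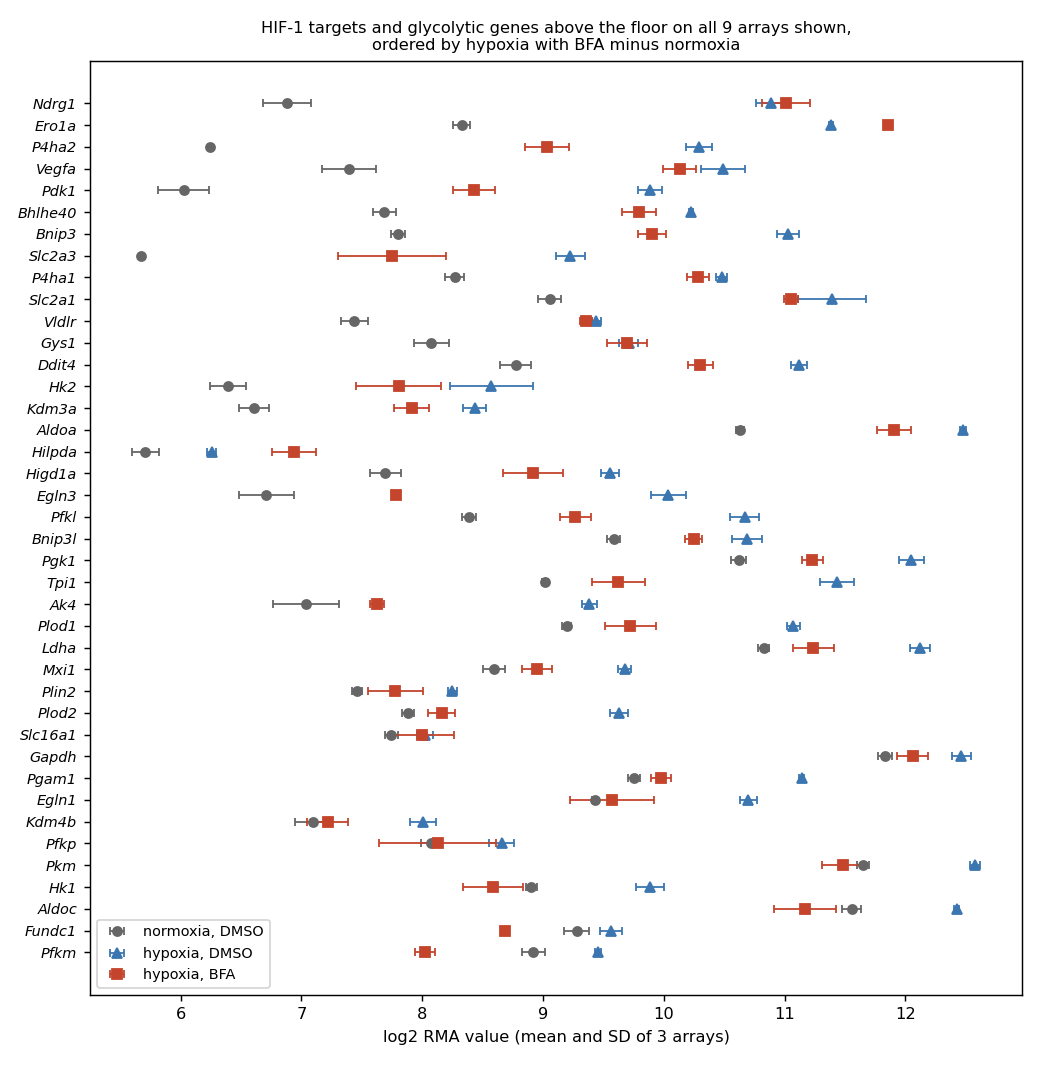
Mean log2 level with SD over 3 arrays of the HIF-1 targets and glycolysis genes above the floor on all 9 arrays of normoxia, hypoxia with DMSO and hypoxia with BFA. The hypoxia BFA mean lies between the other means at genes such as Pdk1 and Bnip3, and near the normoxia mean at Egln1 and Plod2.

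Sterol and fatty acid synthesis genes fell. Of 20 cholesterol genes 16 fell and none rose, with a median of -0.87, and all 10 fatty acid synthesis genes fell, with a median of -0.86. Quantile normalization gave 14 and 7 falls. Hmgcs1, which makes HMG-CoA at the head of the pathway, read 10.88, 10.90 and 10.87 in normoxia and 8.89, 9.16 and 9.20 with BFA, 3.48-fold lower (limma adjusted p = 9.52e-08). Hsd17b7, of the late sterol steps, read 8.01, 8.02 and 8.02 and 5.21, 5.12 and 5.34 and was at least 2.87-fold lower, since all BFA arrays lay below the floor. Dhcr7, the last reductase of the pathway, differed by -2.21, Idi1 by -2.0 and Nsdhl by -1.97. The groups did not overlap at Hmgcs1 or Hsd17b7. The regulators fell too, with -1.42 for the escort protein Scap and -1.11 for the transcription factor Srebf2, while the retention factor Insig1 (-0.26) and Insig2 (0.40) did not pass. Among the fatty acid genes, Fads2 and Elovl6 fell the most, by 1.92 and 1.89. In hypoxia with DMSO 1 cholesterol gene was higher than in normoxia and none lower.

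DNA replication genes fell in 36 of 38 members and mitosis genes in 33 of 34, and none rose. The medians were -1.62 and -1.27. Mcm6, of the replicative helicase, read 9.82, 9.75 and 9.73 in normoxia and 7.39, 7.31 and 7.07 with BFA, 5.68-fold lower (limma adjusted p = 1.86e-08). The other helicase genes Mcm2 to Mcm5 fell by between 1.67 and 1.91. Rrm2, which makes deoxynucleotides, was at least 5.77-fold lower, and the loading factor Cdc6 at least 2.37-fold. Ccna2, the cyclin of S phase and mitotic entry, read 10.30, 10.31 and 10.21 and 7.74, 8.05 and 8.05, 5.02-fold lower (limma adjusted p = 2.4e-08). The groups did not overlap at Mcm6 or Ccna2. Its kinase partner Cdk1 differed by -1.64, Ccnb2 by -1.59, Mki67, the proliferation marker Ki-67, by -1.61, and Pcna, the sliding clamp, by -0.81. Orc1 (-0.39), Cdc45 (-0.48) and Ndc80 (-0.20) did not pass. Hypoxia with DMSO was lower than normoxia in 6 of the 38 replication genes and 2 of the 34 mitosis genes, beside 0.563% of all transcript clusters.

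Inhibitors of the cycle did not move as one, with 5 rises and 2 falls among 10, and 3 of the 4 measured D cyclins and their kinases fell. Gadd45a, a stress-induced inhibitor of the G2 to M step, read 7.06, 6.95 and 7.36 in normoxia and 9.53, 9.56 and 9.32 with BFA, 5.08-fold higher (limma adjusted p = 4.34e-08). Cdkn1b, which encodes p27, differed by 0.83. Cdkn1a, which encodes p21, rose by 0.40 with BFA beside 1.29 in hypoxia with DMSO. The cyclin Ccnd3 differed by -1.41, the kinase Cdk4 by -1.0 and the Ink4a/Arf locus Cdkn2a by -1.54, and these fell. Of 17 BCL2 family and death receptor genes 7 rose and 4 fell. Among the 6 of them below the floor on all 6 arrays were 2 of the rises and 1 of the falls. The pro-survival Bcl2l1 was at least 1.8-fold lower and Mcl1 fell by 0.42, whereas Bcl2 rose by 0.79 and the BH3-only gene Bbc3 by 0.61.

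**Figure D4:**
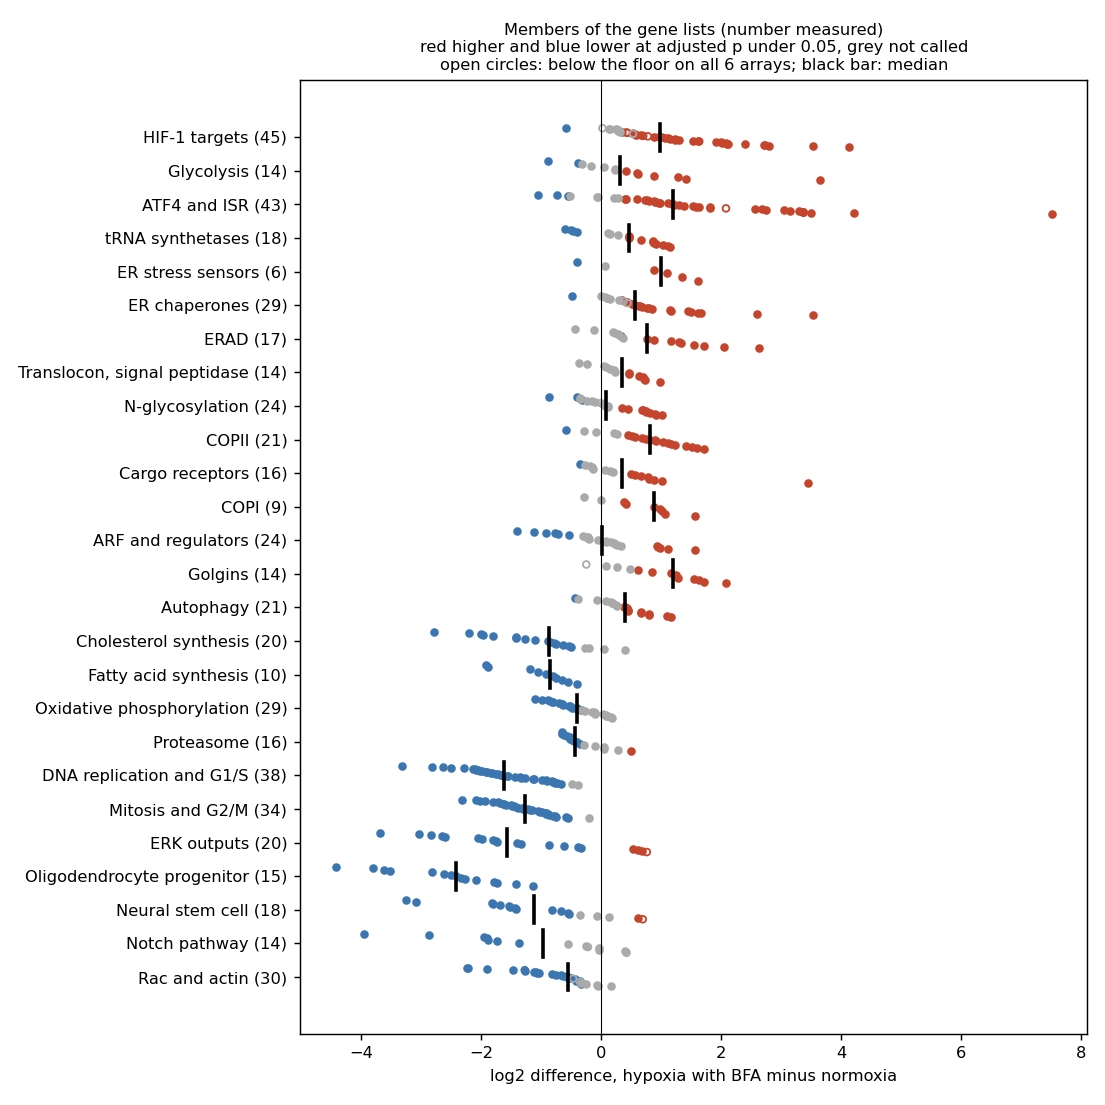
Log2 difference of hypoxia BFA minus normoxia for every measured member of a selection of the gene lists, with the bar at the list median. Other lists are not drawn, among them the myelin, matrix, lysosomal, NRF2, BCL2 family and marker lists. Red points rose, blue points fell, grey points did not pass, and open points were below the floor on all 6 arrays. Medians of the lists drawn run from -2.42 for the oligodendrocyte progenitor genes to 1.20 for the ATF4 and golgin lists.

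Oligodendrocyte progenitor genes, which mark the precursors of myelinating glia, fell in 15 of 15 members with a median of -2.42, the lowest of all lists. Olig1, a lineage transcription factor, read 11.38, 11.14 and 11.19 in normoxia and 6.72, 6.74 and 6.96 with BFA, 21.5-fold lower (limma adjusted p = 9.63e-10). Olig2, its partner, read 11.63, 11.68 and 11.59 and 7.98, 8.23 and 8.10, 11.5-fold lower (limma adjusted p = 9.58e-10). Both levels were far above the floor in normoxia, with no overlap between the groups. With BFA Olig2 remained well above the floor. Olig1 lay only just above it, beside floors of 6.65, 6.37 and 6.45 on the same 3 arrays. Sox10 differed by -2.82 ± 0.12, the proteoglycan Cspg4 (NG2) by -2.27 and Bcan, a matrix proteoglycan, by -2.63. The committed-progenitor receptor Gpr17 differed by -3.81, with not every BFA array above the floor. The heparan sulfate proteoglycan Sdc3 differed by -3.62. In hypoxia with DMSO 1 of the 15 genes was higher than in normoxia and none lower. Against hypoxia with EHT-1864, 14 of the 15 were lower with BFA, with a median of -1.59. This difference was -2.85 at Olig1 and -0.97 at Olig2. Hypoxia with EHT-1864 averaged 9.65 at Olig1 and 9.08 at Olig2, beside 11.23 and 11.63 in normoxia, a difference that was not tested.

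Myelin genes fell in 6 of 11 members, led by Cnp (-3.08), at which not every BFA array lay above the floor. Below the floor on all 6 arrays were 5 of the 11, among them Mog and Mag. Of 18 neural stem cell genes 13 fell and 2 rose. Fabp7, a radial glia fatty acid carrier, differed by -3.08, and the helix-loop-helix inhibitor Id3 was at least 3.2-fold lower. Sox2 fell by 1.42, Sox9 by 0.55, and the intermediate filament Nes stood at -0.07 and did not pass. In the Notch pathway 7 of 14 members fell and none rose. The ligand Dll3 was at least 7.76-fold lower and the ligand Jag1 differed by -1.89, while the effectors Hes1 (-0.25) and Hes5 (-0.04) did not pass.

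Endothelial, microglial and fibroblast markers were mostly below the floor in both groups, while some astrocyte and neuronal markers were above it. All 6 endothelial markers, 7 of 8 microglial markers and 6 of 7 fibroblast and pericyte markers were below the floor on all 6 arrays. The summed level of the endothelial markers ran from 6.01 to 6.12 in normoxia and from 6.43 to 6.74 with BFA, that of the microglial markers from 7.35 to 7.55 and from 7.40 to 7.63, and that of the fibroblast markers from 7.20 to 7.28 and from 7.48 to 7.89. Astrocyte markers summed to between 11.97 and 12.07 in normoxia and between 11.15 and 11.61 with BFA, with 4 of 8 lower, and 3 of the 8 were above the floor on every normoxia array. Gfap and Aqp4 were below the floor on all arrays. Neuronal markers summed to between 9.76 and 9.79, and between 8.78 and 8.88 with BFA, and 3 of 8 were above the floor on every normoxia array and 2 on every BFA array. S100b, whose promoter names the transgene, read 9.60, 9.61 and 9.61 in normoxia and 7.89, 8.19 and 7.76 with BFA, 3.16-fold lower (limma adjusted p = 4.05e-07).

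Outputs of ERK signalling, the pathway downstream of ERBB receptors, fell in 16 of 20 members and rose in 4, with a median of -1.57. Against hypoxia with EHT-1864, 10 of the 20 were lower with BFA and 4 higher, with a median of -0.48. Dusp6, the phosphatase that limits ERK, read 10.19, 9.95 and 9.89 in normoxia and 6.87, 7.37 and 7.27 with BFA, 7.15-fold lower (limma adjusted p = 2.67e-08). Spry4, another feedback inhibitor, was at least 4.86-fold lower, Phlda1 at least 7.41-fold, and the ETS factors Etv1 and Etv5 fell by 2.61 and 1.99. Myc read 11.80, 11.79 and 11.81 and 9.83, 10.10 and 10.06, a difference of -1.81 ± 0.11 (limma adjusted p = 5.92e-08). The groups did not overlap at Dusp6 or Myc. Egr2 differed by -3.04 and Egr1 by -1.74. The difference from hypoxia with EHT-1864 did not pass at Dusp6 (-0.39) or Egr2 (-0.13), which does not show that the levels are equal. The 4 that rose were Epha2, below the floor on all 6 arrays, Fosl1 (0.69), Ier3 (0.62) and Dusp5 (0.53). Immediate early factors did not follow, with 7 rises and 1 fall among 12. Fos fell by 1.97, whereas Klf4 rose by 1.60 and Fosl2 by 1.10. Among the receptors, Erbb3 was at least 4.93-fold lower and Erbb2 fell by 0.82, while no array of the 6 had Egfr above the floor.

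Genes of Rac signalling and actin nucleation fell in 23 of 30 members and none rose, and quantile normalization gave 15 falls and 1 rise. Wasf1, of the WAVE complex, differed by -2.24, the Arp2/3 subunit Arpc1b by -1.91 and the exchange factor Tiam1 by -1.11, while Rac1 fell by 0.52. Matrix and invasion genes fell in 20 of 36 members and rose in 5. Fn1, the matrix protein fibronectin, rose by 1.78, and the cadherin Cdh2 and the protease Adamts4 fell by 1.64 and 2.11. SRF and YAP targets had 6 rises and 6 falls among 20, from -2.41 at Tpm1 to 1.54 at Ajuba.

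Among stress and turnover genes, Hmox1, which degrades haem, read 7.90, 7.90 and 7.79 in normoxia and 11.72, 11.69 and 11.73 with BFA, 14.4-fold higher (limma adjusted p = 9.63e-10). The NRF2 target list, which holds Hmox1, did not move as a group, with 4 rises and 4 falls among 10. Srxn1 rose by 2.08, and Txnrd1, thioredoxin reductase, fell by 1.13. Cytosolic heat shock genes fell in 6 of 11 members, with -0.99 for Hsph1 and -0.99 for Hsp90aa1. Hspa1a (1.06) and Hspa1b (0.87) rose, and these near-identical copies may share probe signal. Autophagy genes rose in 12 of 21 members and fell in 1, with 1.17 for the receptor Sqstm1 and 1.11 for Gabarap. Lysosomal genes were divided, with 3 rises and 5 falls among 16 and 7 and 3 after quantile normalization, and only 3 fell without hypoxia BFA replicate 1 or without normoxia replicate 3. The protease Ctsl was the exception in size, at 2.89 ± 0.14, or 7.44-fold higher (limma adjusted p = 9.55e-09), while Ctsb fell by 0.88.

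The counts of the following housekeeping groups depended on the scaling, and so did those of some lists above. After quantile normalization ER chaperones had 25 rises, ER-associated degradation 15, ER stress sensors 5 and cargo receptors 11, each with no fall. ERK outputs then had 13 falls, while the oligodendrocyte progenitor list kept its 15. Of 11 ribosomal protein genes 1 rose and none fell, with 9 rises after quantile normalization and 5 with a trended and robust variance. Of 29 oxidative phosphorylation genes 17 fell and none rose, with 9 falls and 4 rises after quantile normalization. Of 16 proteasome genes 10 fell and 1 rose, with 4 and 4 after it. Inflammatory genes rose in 6 of 14 members, of which Ptgs2, the inducible cyclooxygenase, was at least 2.56-fold higher. Of the 14, 7 were below the floor on all 6 arrays, among them 3 of the 6 that rose. Interferon response genes were below the floor in 10 of 11 cases.

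Predicted and RIKEN names left out, the level was higher than normoxia in hypoxia with DMSO and lower with BFA in 80 genes. In 5 genes it was the other way round. Among those 5, Rfpl4, Hba-x and Pde4c were below the floor on every array of normoxia, hypoxia with DMSO and hypoxia with BFA. The comparisons with normoxia share its arrays, and the following 3 genes are described without a test since the opposite directions chose them. Igfbp5, an IGF binding protein, read 6.80, 6.87 and 6.84 in normoxia, 9.63, 9.47 and 9.38 in hypoxia with DMSO and 5.85, 5.21 and 5.67 with BFA, where all 3 arrays were below the floor. Has2, which makes hyaluronan, read 9.01, 8.87 and 8.94, 9.77, 9.95 and 9.78 and 6.58, 6.51 and 6.49 in the same order. Sdf2l1, an ER chaperone cofactor, ran the other way, with 9.02, 9.08 and 9.04, 8.59, 8.45 and 8.5 and 9.74, 9.85 and 9.94. In each of these genes no array of one group overlapped with those of another, which the way they were chosen made likely and which adds no support.

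Outside the lists, the largest rises among genes above the floor in both groups included the reductase Cyb5r1 (3.49), Lrrc17 (3.01) and the noncoding Ipw (2.79). Cdsn, a skin adhesion protein, was at least 19.9-fold higher. The largest falls included the secreted synaptic ligand C1ql1 (-3.61), the myelin glycoprotein Omg (-3.15), the hyaluronan link protein Hapln1 (-2.96) and Rtn1 (-3.02). Sulf2, an extracellular sulfatase that edits heparan sulfate, was at least 10.6-fold lower, the largest bound downward. Adam23, a disintegrin of the neural surface, was at least 7.52-fold lower, and Sfrp1, a Wnt antagonist, at least 6.3-fold.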

How the data were processed

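Mouse Clarion S arrays of 12 samples in 4 groups of 3 were read as the deposited value table, whose log2 levels the authors made with RMA in Affymetrix Expression Console, per the submitters' processing notes. Tool versions and the genome build behind the array are not given in the sources used here. Of 28846 probe sets, 6640 controls were left out, and 22206 transcript clusters were tested with limma 3.58.1 in R 4.3.3 on all 12 arrays without further normalization (8 residual degrees of freedom), with Benjamini-Hochberg adjustment over all 22206. GEO's platform annotation gave 1 symbol to 19572 and none to 2634, and symbols were updated through Entrez numbers. A gene with several probes (55 genes) was represented by 1. The floor was the 95th percentile of 5222 negative control probes per array. The 48 gene lists, of 878 members with 818 measured, and the genes compared were chosen with earlier results of these data known. Genes named outside the lists were the 15 largest rises and falls above the floor in both groups and not overlapping, the 10 highest and lowest bounds of genes above the floor in 1 group alone, and up to 8 each way of those on opposite sides of normoxia. List members were named by adjusted p, role or, if they did not pass, smallest difference, and names of unsure function were left out. The fit was tested on simulated data. Alternatives were quantile normalization, median subtraction, filters on dim probes, another variance model, array weights, the 6 arrays alone, a replicate block and leaving out each array.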

Additional observations from a re-analysis of the deposited data

Results flagged for a closer look

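Control probes outside the comparison differed between the groups. The 4 hybridization control probe sets, which are added after labelling, averaged 10.93 ± 0.12 (SD, n = 3) on the hypoxia BFA arrays and 9.85 ± 0.06 (n = 3) on the normoxia arrays, a log2 difference of 1.07. The 4 poly-A controls, which are added to the RNA, averaged 8.22 ± 0.24 and 7.6 ± 0.41, a difference of 0.63. The 95th percentile of the negative controls, used as the floor, differed by 0.88. For each of the 3 the arrays of the groups did not overlap, and the exact two-sided permutation p was 0.1, the smallest that 3 against 3 arrays can give. Their part in the gene results was not tested.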

How the results depend on the processing

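Among the list members and named genes, none that passed the test in either setting changed sign under any alternative run. The total of 10432 lay between 9162 and 10863 with quantile normalization, median subtraction, the dimmest 25% left out, another variance model, array weights or the 6 arrays alone. Leaving out each array gave 8503 to 10601, with 3862 to 5194 higher, 4641 to 5407 lower, 968 to 1128 at least 2-fold higher and 2083 to 2411 at least 2-fold lower. Keeping only transcript clusters above the floor on at least 3 arrays, so fewer were tested, gave 7650 with 2432 higher, 507 of them at least 2-fold, which lowered the share of higher calls from 49.0% to 31.8%. A filter chosen after seeing the data, above the floor on all 6 arrays, gave 4801, with 1936 higher and 2865 lower, and 402 and 797 at least 2-fold. The replicate block gave 10117 (4890 higher, 5227 lower), and same-numbered arrays did not deviate together (correlations of -0.10, -0.04 and -0.03), so the numbers were not taken as pairs. Quantile normalization turned the medians of HIF subunits and sensors to 0.027, cell cycle brakes to 0.015, NRF2 targets to 0.021, interferon genes to -0.047, lysosomal genes to 0.18, SRF and YAP targets to 0.036 and microglial markers to -0.13. Over all transcript clusters it gave 9418 calls, and among the list members and named genes alone 79 came past the threshold and 70 dropped below it. Medians near 0 (ARF genes, SRF and YAP targets, microglial and fibroblast markers) also changed sign in some other settings. The floor filters turned ERBB genes to -0.68 under both, neuronal markers to -1.15 and -0.75, and cell cycle brakes to 0.067 and lysosomal genes to 0.028 under the filter on all 6 arrays. The cause of these changes was not tested. Below the floor only bounds can be given.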
